A study of Homo sapiens with 9 samples.

Results

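Transcripts of LAN-5 cells given S100B at 5 µM were compared directly with those of LAN-5 cells given S100B at 0.5 nM, a dose ratio of 10000. LAN-5 is an established human neuroblastoma line, and S100B is a calcium-binding protein that astrocytes release. The comparison rests on 6 of the 9 arrays of the series, chosen by their sample titles: 3 arrays at 5 µM and 3 at 0.5 nM, each described as a biological replicate in the series design. The other 3 arrays came from cells given culture medium alone, and they entered the same fit and are given beside the doses as the untreated level. All groups were the same cell line, grown in complete DMEM to near confluence and replated at a fixed density, with no other agent named, and the length of exposure is not given in the sources used here. A single line in culture holds no glia or immune cells to answer the protein, so the arrays show the response of these tumour cells only. RNA was pooled from a whole culture, so a lower level in every cell and a loss in some of the cells cannot be told apart.

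Extracellular S100B is known to act in a dose-dependent way on neurons: nanomolar amounts are described as trophic and micromolar amounts as toxic, and the receptor RAGE (gene AGER) is the best known binding partner. Cholesterol synthesis, the pathway that holds most of the genes that differed, runs from acetyl units through HMG-CoA and mevalonate to farnesyl diphosphate, and from squalene through lanosterol to cholesterol. Its enzymes are induced together when membrane sterol is low: the transcription factors SREBP1 and SREBP2 are then released from the endoplasmic reticulum, where INSIG proteins otherwise hold them, and they bind promoters together with the CCAAT-binding factor NF-Y.

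Of 8746 probe sets that are not manufacturer's controls, 5830 lay above the intensity filter and were compared on the log2 scale. The arrays of different doses were as alike as those of one dose: pairs correlated across probe sets at 0.9940 to 0.9969 between doses, at 0.9934 to 0.9972 within 5 µM and at 0.9938 to 0.9964 within 0.5 nM. The neuroblastoma identity given by the labels was borne by 12 of 13 measured noradrenergic markers above the filter, with a mean of 9.81 to 9.87 log2 on the 0.5 nM arrays and 9.78 to 9.93 on the 5 µM arrays. The 13th, tyrosine hydroxylase TH, lay below it. Of short lists of defining markers of other cell types, 5 of 7 mesenchymal and Schwann-like, 3 of 5 astrocyte and oligodendrocyte, 2 of 3 leukocyte and 3 of 4 epithelial markers lay below the filter, while the mesenchymal filament gene VIM was at 10.84 log2. Of longer lists, 10 of 24 mesenchymal and Schwann-like, 4 of 10 astrocyte and oligodendrocyte, 11 of 15 leukocyte and 4 of 11 epithelial markers lay above it. The leukocyte markers above it had means of 6.12 to 7.72 log2. The filter ranks intensity and is no call of presence, so these counts do not show whether such transcripts were present. The 9 spike-in controls averaged 8.89 to 9.04 log2 at 0.5 nM and 8.59 to 9.07 at 5 µM. The 3 controls for 18S ribosomal RNA averaged 6.95 on the array of 5 µM replicate 1 and 5.79 to 6.16 on the other 8, and the 3' minus 5' signal of the GAPDH control ran from 0.20 to 0.37 at 0.5 nM and from 0.24 to 0.40 at 5 µM.

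The promoters of genes that differed between the doses are shown first, because most of these genes belong to one pathway and moved together. Each window covers 250 bases before to 50 bases after an annotated transcription start in RefSeq (build GRCh38.p14), read in the direction of the gene. Capitals mark a CCAAT box (CCAAT, or ATTGG on the opposite strand) and, in FDPS, a match to TCACNCNAC, a loose form of the sterol regulatory element that SREBPs bind. The pathway genes HMGCS1, FDPS, MSMO1 and LSS and the sterol sensor INSIG1 fell at the higher dose, CHRM3 fell outside the pathway, and TFRC rose.

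HMGCS1: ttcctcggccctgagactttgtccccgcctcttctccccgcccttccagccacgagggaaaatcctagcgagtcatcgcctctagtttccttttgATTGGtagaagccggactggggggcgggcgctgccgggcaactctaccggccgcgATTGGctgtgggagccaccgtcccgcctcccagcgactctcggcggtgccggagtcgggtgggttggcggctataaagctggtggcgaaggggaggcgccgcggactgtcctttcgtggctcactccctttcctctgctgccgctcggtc
FDPS: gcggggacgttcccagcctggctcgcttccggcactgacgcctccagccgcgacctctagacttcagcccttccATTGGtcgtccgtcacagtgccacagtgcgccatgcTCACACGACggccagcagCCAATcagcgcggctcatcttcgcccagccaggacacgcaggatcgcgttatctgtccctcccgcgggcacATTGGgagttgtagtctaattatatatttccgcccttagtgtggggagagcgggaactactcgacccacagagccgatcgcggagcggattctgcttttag
MSMO1: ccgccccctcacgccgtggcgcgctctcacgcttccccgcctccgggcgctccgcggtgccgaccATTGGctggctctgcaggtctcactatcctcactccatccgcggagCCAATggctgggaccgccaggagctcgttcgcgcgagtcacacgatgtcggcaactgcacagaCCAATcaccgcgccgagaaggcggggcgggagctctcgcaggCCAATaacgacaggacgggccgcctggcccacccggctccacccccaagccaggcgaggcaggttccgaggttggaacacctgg
LSS: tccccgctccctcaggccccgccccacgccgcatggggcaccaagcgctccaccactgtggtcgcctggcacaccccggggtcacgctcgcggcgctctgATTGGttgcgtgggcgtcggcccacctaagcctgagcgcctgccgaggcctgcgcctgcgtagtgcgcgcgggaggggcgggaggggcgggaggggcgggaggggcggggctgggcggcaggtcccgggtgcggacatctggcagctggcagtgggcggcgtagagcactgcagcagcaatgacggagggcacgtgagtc
INSIG1: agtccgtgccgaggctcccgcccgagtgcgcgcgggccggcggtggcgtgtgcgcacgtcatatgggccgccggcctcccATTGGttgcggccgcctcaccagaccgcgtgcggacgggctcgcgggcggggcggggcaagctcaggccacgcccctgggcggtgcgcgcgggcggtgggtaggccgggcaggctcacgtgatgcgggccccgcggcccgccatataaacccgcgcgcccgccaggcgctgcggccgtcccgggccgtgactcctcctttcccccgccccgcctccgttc
CHRM3: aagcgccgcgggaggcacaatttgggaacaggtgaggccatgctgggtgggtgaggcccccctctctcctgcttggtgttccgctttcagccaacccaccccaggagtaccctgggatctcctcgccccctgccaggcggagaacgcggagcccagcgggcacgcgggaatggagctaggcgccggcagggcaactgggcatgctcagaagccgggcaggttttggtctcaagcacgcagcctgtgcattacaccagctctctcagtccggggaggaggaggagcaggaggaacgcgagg
TFRC: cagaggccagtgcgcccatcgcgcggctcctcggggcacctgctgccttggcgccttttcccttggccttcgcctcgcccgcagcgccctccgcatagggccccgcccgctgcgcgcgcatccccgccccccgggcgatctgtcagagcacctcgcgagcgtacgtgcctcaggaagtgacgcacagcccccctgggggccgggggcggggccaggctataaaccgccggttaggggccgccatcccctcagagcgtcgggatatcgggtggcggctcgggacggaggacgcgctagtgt

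These windows lie at chr5:43313363-43313662 on the minus strand for HMGCS1, chr1:155308616-155308915 on the plus strand for FDPS, chr4:165327419-165327718 on the plus strand for MSMO1 and chr21:46228725-46229024 on the minus strand for LSS. INSIG1 is at chr7:155297628-155297927 and CHRM3 at chr1:239386318-239386617, both on the plus strand, and TFRC at chr3:196082041-196082340 on the minus strand. For HMGCS1, which has 2 windows in the table, the upstream one is printed. Of the 12 named genes that fell, 11 had a window, and 10 of these held a CCAAT box in at least 1 window, the exception being CHRM3. The box was held by 44.8% of the 4215 tested genes with a window and by 34.6% of all 35116 windows, and TFRC held none. Of the 18 tested cholesterol synthesis genes 17 had a window, and 15 of these (88.2%) held the box. Pathway genes that did not pass, such as MVK, GGPS1 and EBP, were among them, so the box does not set apart the genes that fell. Counted by window, 11 of 17 windows of the genes that fell held it. MSMO1 has 4 boxes within the printed window and FDPS has 3, the nearest to the start at -34 to -30 and -51 to -47. The loose sterol element pattern was in FDPS, at -140 to -132, and in HSD17B7, against 3.80% of tested genes, and a stricter form, TCACNCCAC, was in 0 of the 11 genes and in 1.73% of tested genes. Such matches describe the letters of these windows and not binding.

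Most of the transcriptome did not differ measurably between the doses, and the few genes that did were nearly all lower at 5 µM. In limma's fit 15 of 5830 probe sets passed an adjusted p under 0.05 (0.257%), 14 of them lower (0.240%) and 1 higher (0.0172%). The 95% interval of the difference lay within 0.5 log2 of 0 for 98.0% of probe sets and within 0.3 log2 for 82.5%, and the median difference was -0.0089. An absolute difference of at least 0.5 log2 was seen for 14 probe sets (0.240%), of at least 0.3 for 41 (0.703%) and of at least 0.2 for 172 (2.95%). In all 271 (4.65%) had an unadjusted p under 0.05, of which 170 were lower and 101 higher. Among tested probe sets the differences ran from -1.19 to 0.49, and ABCG1, which lay just below the intensity filter, is described with the sterol exporters.

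**Figure D1:**
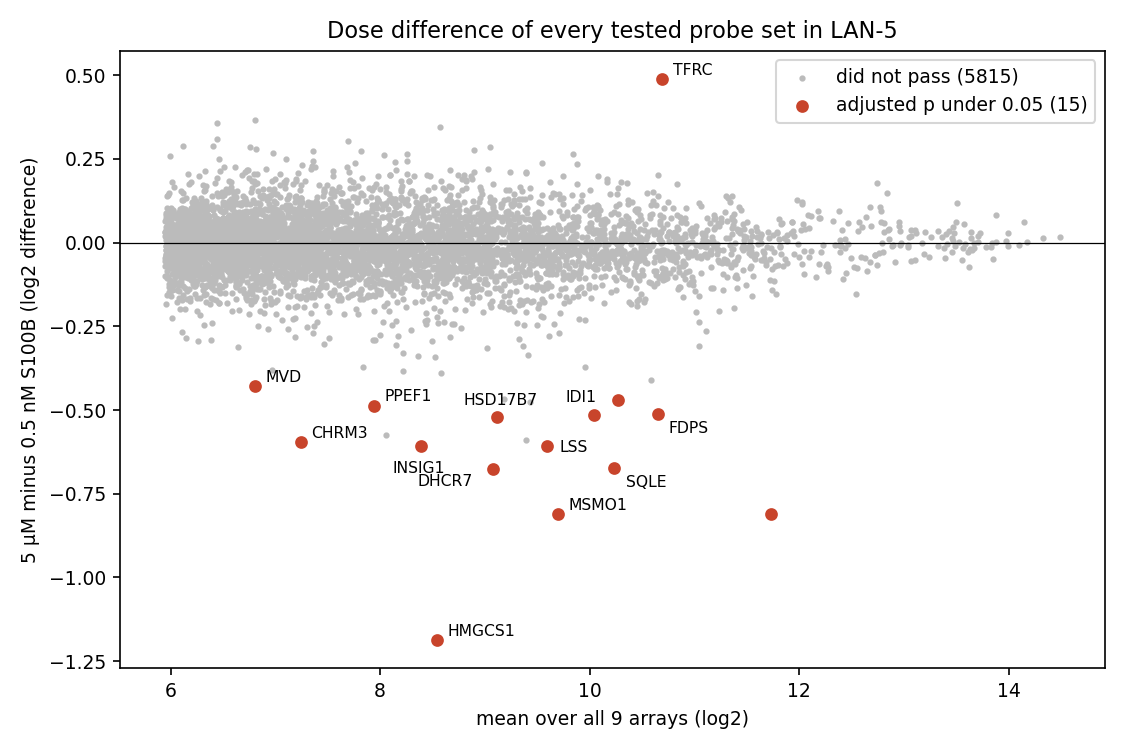
Difference between the doses (5 µM minus 0.5 nM, log2) against the mean over all 9 arrays (log2) for each of 5830 tested probe sets. The 15 that passed are in red, from -1.19 for HMGCS1 to 0.49 for TFRC, and the 2 red points without a name have no entry in the annotation used.

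The 15 changed probe sets had means from 6.81 to 11.74 log2, at percentiles 30.9 to 97.1 of the tested probe sets, so none was among the dimmest. Of these, 13 have a single gene symbol and 2 have no entry in the annotation and are not named here. In all 15 the 5 µM arrays lay outside the range of the other 6 arrays, untreated included, while 157 of all probe sets (2.69%) had all 3 arrays of 5 µM below the other 6 and 50 (0.858%) had them above. The opposite arrangement, with the 0.5 nM arrays apart from the other 6, was found below for 42 (0.720%) and above for 22 (0.377%). Dropping 0.5 nM replicate 1, 2 or 3 left 5, 6 or 3 past the threshold, and dropping 5 µM replicate 1 or 2 left 8 or 4. With any 1 of the other 4 arrays dropped, 11 to 14 passed. A fit of the 6 dose arrays alone passed 4.

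Enzymes of the mevalonate arm were lower at 5 µM. HMGCS1, the cytosolic HMG-CoA synthase that condenses acetyl units, had values of 9.17, 8.88 and 8.81 log2 on the 0.5 nM arrays and 7.76, 7.80 and 7.73 on the 5 µM arrays. The groups lay more than 1 log2 apart, and the 5 µM arrays were also the closer together, while the untreated arrays at 8.82, 8.74 and 9.17 overlapped the 0.5 nM range. HMGCS1 fell by 1.19 ± 0.12 (SE, n = 3 per group) to 43.9% of its level at 0.5 nM, with a 95% interval of 36.8% to 52.4% and limma's adjusted p = 0.00228. Among the probe sets above the filter it was the only one to differ by 2-fold or more.

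The later steps of this arm that passed came after mevalonate phosphorylation. FDPS, which joins isoprene units into farnesyl diphosphate, was at 10.88, 10.78 and 10.81 log2 at 0.5 nM and 10.24, 10.27 and 10.42 at 5 µM, a difference of -0.51 ± 0.07 (SE; adjusted p = 0.0122). IDI1, the isomerase that makes the allylic substrate for that step, was at 10.31, 10.15 and 10.15 against 9.78, 9.76 and 9.52, and differed by -0.51 ± 0.08 (adjusted p = 0.0300). MVD, the decarboxylase that makes isopentenyl diphosphate, was at 7.06, 6.95 and 6.87 against 6.47, 6.55 and 6.58, and differed by -0.43 ± 0.07 (adjusted p = 0.0483). In each of the 3 the doses did not overlap, and each 5 µM array was also below all untreated arrays.

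The 2 kinases between HMG-CoA and the decarboxylase did not pass. Mevalonate kinase MVK was at 9.34, 9.32 and 9.42 log2 at 0.5 nM and 9.41, 9.08 and 9.28 at 5 µM, and the groups overlapped, with a difference of -0.10 (95% interval -0.27 to 0.07). Phosphomevalonate kinase PMVK differed by -0.12 (-0.34 to 0.10). GGPS1, which extends farnesyl diphosphate on a branch that leads away from sterols, differed by -0.16 (-0.33 to 0.0045), with no overlap between doses. The intervals of the kinases exclude a fall as large as that of IDI1 or FDPS, though the difference between these genes was not tested.

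Enzymes from squalene to cholesterol were lower at 5 µM as well. MSMO1, which oxidises the methyl groups at carbon 4 of the sterol ring, had values of 10.15, 9.81 and 9.87 log2 at 0.5 nM and 9.19, 9.16 and 9.05 at 5 µM. All 3 micromolar arrays were low and close to each other. It fell by 0.81 ± 0.09 (SE, n = 3 per group) to 57.0% of its level at 0.5 nM (95% interval 49.7% to 65.5%, limma's adjusted p = 0.00532).

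SQLE, the squalene epoxidase and a flux-controlling step, was at 10.41, 10.44 and 10.53 log2 at 0.5 nM and 9.54, 9.91 and 9.90 at 5 µM. Replicate 1 was the lowest of the 5 µM arrays, and the difference was -0.67 ± 0.09 (adjusted p = 0.0122). Lanosterol synthase LSS, which closes the sterol rings, was at 9.75, 9.84 and 9.83 against 9.20, 9.10 and 9.31. It fell to 65.7% of its 0.5 nM level (58.4% to 73.8%, adjusted p = 0.0104). DHCR7, the reductase that makes cholesterol from 7-dehydrocholesterol, was at 9.38, 9.16 and 9.37 against 8.56, 8.56 and 8.77, a fall to 62.6% (54.3% to 72.1%, adjusted p = 0.0122). HSD17B7, a ketosteroid reductase of the same demethylation complex as MSMO1, was at 9.26, 9.25 and 9.25 against 8.60, 8.70 and 8.89, a fall to 69.7% (62.6% to 77.6%, adjusted p = 0.0122). The doses did not overlap in any of these genes.

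The other 6 measured members of this part of the pathway lay lower without passing. ERG28, a scaffold of the demethylation complex, was nearest, at -0.38 ± 0.07 (limma's adjusted p = 0.0655), with 8.42, 8.36 and 8.28 log2 at 0.5 nM and 7.92, 8.05 and 7.94 at 5 µM. SC5D, the sterol desaturase, differed by -0.31 ± 0.08 (adjusted p = 0.424), NSDHL, the decarboxylating dehydrogenase, by -0.29 ± 0.07 (adjusted p = 0.531), and EBP, the sterol isomerase, by -0.24 ± 0.08 (adjusted p = 0.892). The intervals of these 4 did not include 0. The redundant sterol reductases TM7SF2 and LBR were at -0.21 (-0.43 to 0.01) and -0.05 (-0.18 to 0.09), both with overlapping doses. LBR is also a protein of the inner nuclear membrane.

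Together 18 of the 24 genes listed for both arms were tested, and 9 fell and 0 rose, against 0.240% and 0.0172% of all probe sets. All 18 lay below 0, where 55.0% of all probe sets did, and their median was -0.41, beside -0.0089 overall. Against untreated cells the list median was -0.43 at 5 µM and 0.0015 at 0.5 nM. The list was drawn up with earlier results of these data known, so its count is a description of the pathway and not independent evidence of a direction. The number that fell became 3, 3 or 2 when 0.5 nM replicate 1, 2 or 3 was dropped, and 5 or 3 when 5 µM replicate 1 or 2 was.

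**Figure D2:**
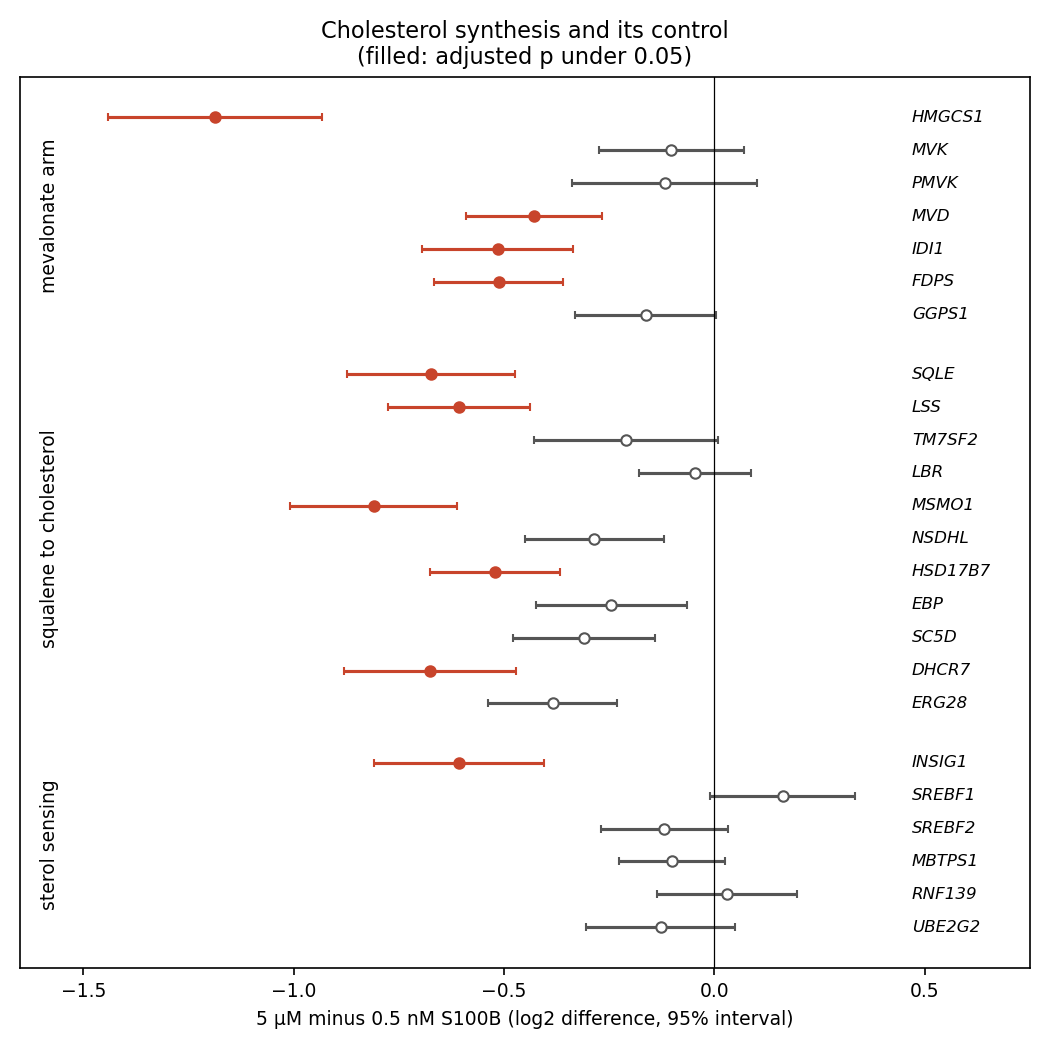
Difference between the doses (5 µM minus 0.5 nM, log2, with the 95% interval of limma's fit) for each tested gene, in pathway order. Filled points passed: 4 of 7 genes in the mevalonate arm, 5 of 11 from squalene on and 1 of 6 in sterol sensing, where INSIG1 is at -0.61 and SREBF1 at 0.16.

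Of the genes that sense sterols and activate SREBPs, INSIG1 fell. INSIG1, which retains the SREBP complex in the endoplasmic reticulum and is itself an SREBP target, was at 8.76, 8.50 and 8.50 log2 at 0.5 nM and 7.997, 8.11 and 7.83 at 5 µM. The doses did not overlap and the untreated arrays, at 8.57, 8.57 and 8.71, lay with the nanomolar ones. Its difference was -0.61 ± 0.09 (SE, n = 3 per group), or 65.7% of the 0.5 nM level (57.1% to 75.6%, limma's adjusted p = 0.0218).

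The transcription factors themselves did not pass. SREBF2, which encodes the SREBP that favours cholesterol genes, differed by -0.12 (95% interval -0.27 to 0.03), with 7.53, 7.47 and 7.47 log2 at 0.5 nM and 7.43, 7.23 and 7.45 at 5 µM. SREBF1, whose product favours fatty acid genes, differed by 0.16 (-0.01 to 0.33), with 7.01, 7.13 and 6.96 against 7.15, 7.10 and 7.34. The protease MBTPS1, which makes the first cut in SREBPs, was at -0.10 (-0.23 to 0.03), and the ubiquitin ligase RNF139 and the conjugating enzyme UBE2G2, which take part in sterol-dependent protein decay, were at 0.03 and -0.13. In all 1 of 6 fell and 0 rose, with a median of -0.11.

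Genes that take up, carry and store cholesterol did not follow. Of 9 tested, 0 passed, 1 had an unadjusted p under 0.05, and the median was -0.02. The lysosomal acid lipase LIPA had the smallest p, at -0.24 ± 0.10 (SE; limma's adjusted p = 0.994), and the HDL receptor SCARB1 was at -0.17 (95% interval -0.36 to 0.01). The sterol exporters of the lysosome, NPC1 and NPC2, were at -0.02 and -0.02, and the endocytic receptor LRP1 at 0.0098. The late endosome protein STARD3, the sterol exchanger OSBP and the lipoprotein APOE were at -0.02, -0.03 and -0.0088, and the Golgi protein ACBD3 at 0.07. The other 4 measured genes lay below the filter, and in a fit without it the receptors LRP8 and VLDLR differed by -0.08 and 0.05, the esterifying enzyme SOAT1 by 0.08 and caveolin CAV1 by 0.04.

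Among the genes that export sterols, ABCG1 had the widest rise of the comparison, but only in a fit without the intensity filter. ABCG1 pumps cholesterol out of the cell and is induced by LXR, the nuclear receptor for oxidised sterols. It was at 5.86, 5.61 and 5.32 log2 at 0.5 nM and 6.47, 6.73 and 6.63 at 5 µM, with untreated arrays at 5.42, 5.42 and 5.60. All 3 micromolar arrays lay above the other 6, and its mean of 5.90 over all arrays fell just short of the filter at 5.947. Without the filter its difference was 1.01 ± 0.12 (SE, n = 3 per group; 95% interval 0.74 to 1.29) with limma's adjusted p = 0.0174, and it was the single probe set called higher of the 14 called. It was singled out after its values were seen. The other exporters and LXR targets of the list below the filter did not pass: ABCA1 was at 0.08, ABCA7 at -0.07 and the phospholipid enzyme LPCAT3 at 0.15.

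Lists for neighbouring lipid pathways had few members with a difference. Of 7 tested LXR and export genes 0 passed, and MYLIP, an LXR-induced ligase that degrades the LDL receptor, lay higher without passing. It was at 6.71, 6.76 and 6.70 log2 at 0.5 nM and 6.99, 6.82 and 6.97 at 5 µM, a difference of 0.21 ± 0.06 (SE; limma's adjusted p = 0.652). Of 11 fatty acid genes 0 passed and the median was -0.05. ACLY, which makes cytosolic acetyl-CoA for both fatty acids and sterols, was at 11.19, 11.11 and 11.15 against 10.63, 10.91 and 10.98, a difference of -0.31 ± 0.10 (adjusted p = 0.853). The desaturases FADS2 and SCD at -0.28 and -0.27 and the synthase FASN at -0.48 were chosen after their values were seen. FASN had the wide SE of 0.24.

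Of 14 phospholipid genes 0 passed, with a median of -0.02. PCYT2, the rate-limiting enzyme of phosphatidylethanolamine synthesis, had the smallest p, at -0.23 ± 0.06 (limma's adjusted p = 0.580) and no overlap between doses. Of 12 genes of the isoprenoid, dolichol, haem A and ubiquinone branches, 0 passed. Their median was 0.02 and the range -0.06 to 0.14, and COX10, which makes haem O, had the smallest p, at 0.09 ± 0.05 (adjusted p = 0.994).

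TFRC was the single gene above the filter that rose. It encodes the transferrin receptor, which brings iron into cells and whose message is stabilised when iron is scarce. Its values were 10.66, 10.42 and 10.50 log2 at 0.5 nM and 10.85, 11.03 and 11.16 at 5 µM, with the untreated arrays at 10.54, 10.54 and 10.55. The lowest 5 µM array was 0.20 log2 above the highest 0.5 nM array, and the difference was 0.49 ± 0.08 (SE, n = 3 per group), or 140.3% of the 0.5 nM level (95% interval 123.6% to 159.4%, limma's adjusted p = 0.0483). It passed in 1 of the 9 fits that left out an array. In the fit without the filter it did not pass.

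The other tested genes of iron handling did not pass. Of 27 genes in the list 16 were measured, and the ferritins and the iron exporter ferroportin were not among them. Of 12 tested in the list, 1 rose and 0 fell, and the median was -0.03. The second transferrin receptor TFR2 was at -0.05 (95% interval -0.20 to 0.10), the iron importer SLC11A2 at 0.07 (-0.10 to 0.23) and the iron regulatory protein ACO1 at -0.02 (-0.17 to 0.13). The haem enzymes ALAS1 and FECH were at 0.07 and -0.03, the haem oxygenases HMOX1 and HMOX2 at 0.08 and -0.08, and the iron chaperones PCBP1 and PCBP2 at -0.09 and -0.02. EPAS1, whose message carries an iron-responsive element, was at -0.13, and the kinase CDC42BPA at -0.24 (-0.47 to -0.02), with overlapping doses. Of the 4 measured genes below the filter, HFE, HAMP, CP and TF, the largest difference was 0.14, for the ferroxidase CP.

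CHRM3 and PPEF1 were the named genes that fell outside cholesterol synthesis and its control. CHRM3, the M3 muscarinic acetylcholine receptor, which signals through phospholipase C and calcium, was at 7.61, 7.33 and 7.49 log2 at 0.5 nM and 6.95, 6.84 and 6.86 at 5 µM. The micromolar arrays were low and tight, and the untreated arrays lay at 7.34, 7.33 and 7.44. CHRM3 fell to 66.1% of the 0.5 nM level (95% interval 59.0% to 74.1%, limma's adjusted p = 0.0104), a difference of -0.60 ± 0.07 (SE). PPEF1, a protein phosphatase with calcium-binding EF hands, was at 8.23, 8.02 and 8.14 against 7.54, 7.68 and 7.71, a fall to 71.4% (64.2% to 79.3%, adjusted p = 0.0154). Both stand in a list of 23 tested genes of muscarinic and calcium signalling, to which they were assigned with these results known. None of the other 21 passed, and the list median was -0.03.

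**Figure D3:**
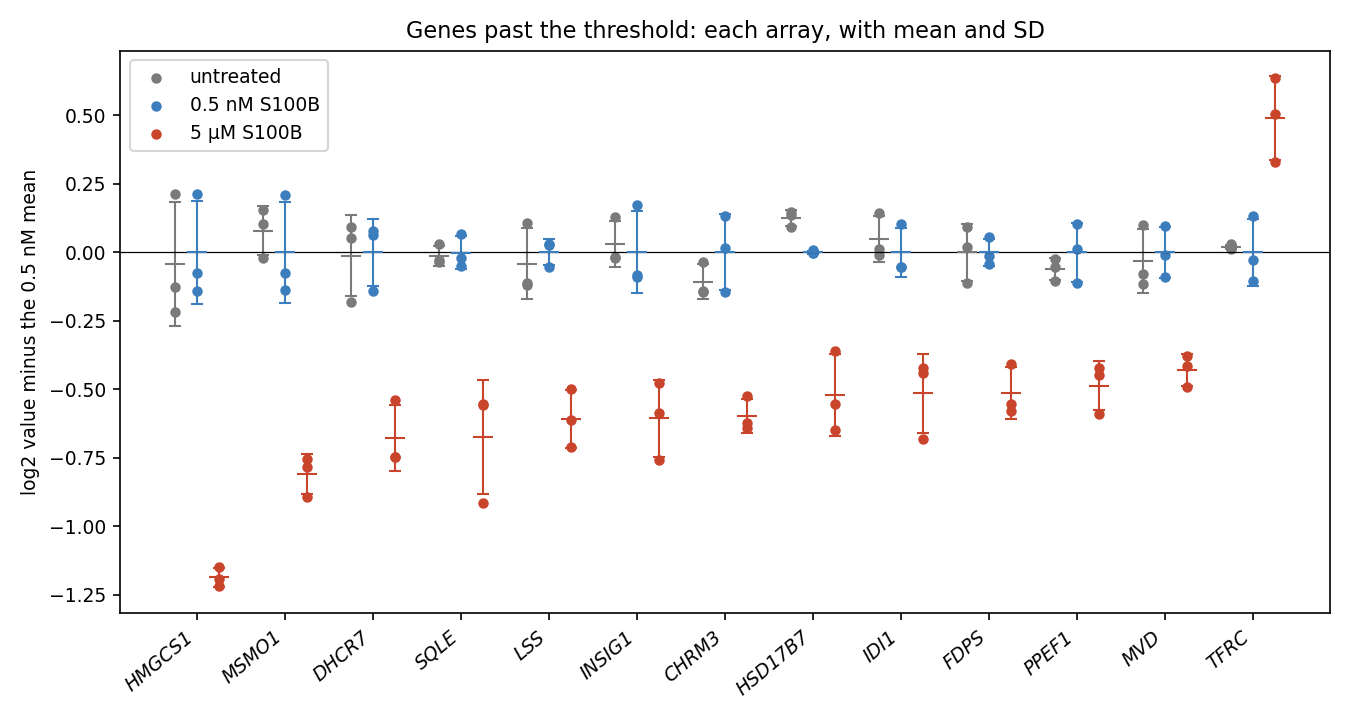
Value of each array minus the mean of the 0.5 nM arrays (log2) for the 13 named genes that passed, with the mean and SD of each group. The 3 arrays at 5 µM lie apart from the 6 others in every gene shown, below for 12 and above for TFRC, while the 0.5 nM and untreated means differ by at most 0.13 log2.

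The 2 changed probe sets with no annotation entry were both lower at 5 µM. The brighter one had the smallest p of the comparison. It was at 12.04, 12.02 and 11.92 log2 at 0.5 nM and 11.19, 11.21 and 11.14 at 5 µM, a difference of -0.81 ± 0.06 (SE, limma's adjusted p = 0.000204). The other was at 10.35, 10.42 and 10.53 against 9.85, 10.07 and 9.97, a difference of -0.47 ± 0.07 (adjusted p = 0.0218).

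Beyond these, the genes with the largest differences that did not pass were a mixed set. On the lower side IGFBP4, a binding protein of insulin-like growth factors, was at 8.23, 8.48 and 8.20 log2 at 0.5 nM and 7.59, 7.66 and 7.94 at 5 µM, a difference of -0.57 ± 0.11 (SE; limma's adjusted p = 0.0955). PLPP3, a lipid phosphate phosphatase of the cell surface, was at 8.57, 8.61 and 8.95 against 7.94, 8.07 and 8.29, a difference of -0.61 ± 0.12 (adjusted p = 0.121). CRABP2, which carries retinoic acid to its nuclear receptor, was at -0.47 ± 0.09 (adjusted p = 0.0955), and cytosolic isocitrate dehydrogenase IDH1, a source of NADPH, at -0.37 ± 0.07 (adjusted p = 0.0772).

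The BMP pseudoreceptor BAMBI was at -0.37, the small GTPase RAB33A at -0.34 and the activin subunit INHBA at -0.29, with adjusted p from 0.740 to 0.853. Of the 11 tested genes of retinoic acid binding, receptors and targets, 0 passed, and the median was 0.0056, and CRABP2 was its only member with an unadjusted p under 0.05.

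On the higher side TFRC alone passed among the tested probe sets. FLRT3, a membrane protein of axon guidance and cell adhesion, was at 6.38, 6.22 and 6.27 log2 at 0.5 nM and 6.76, 6.60 and 6.59 at 5 µM, a difference of 0.36 ± 0.07 (SE; limma's adjusted p = 0.0706). It passed after quantile normalization (adjusted p = 0.0384). The vasodilator peptide adrenomedullin ADM was at 0.28 ± 0.07 (adjusted p = 0.342), FKBP1B, a regulator of ryanodine receptors, at 0.28 ± 0.06 (adjusted p = 0.143) and the secreted neuronal protein NELL2 at 0.24 ± 0.05 (adjusted p = 0.293). TAF5, ZNF264, RRAGD, STAC and CXADR lay between 0.20 and 0.24, with adjusted p from 0.549 to 0.861. The doses did not overlap in any of these genes, as was the case for 6.98% of all probe sets, 4.63% lower and 2.35% higher.

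The untreated arrays place each difference. For the 13 named and 2 unnamed probe sets that passed, the 95% interval of 0.5 nM minus untreated included 0 in all 15 and that of 5 µM minus untreated in 0. The differences from untreated were at most 0.13 log2 in size at 0.5 nM and at least 0.40 at 5 µM. These comparisons share arrays with the one between doses, so they are not independent of it.

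Among the genes that did not pass, some differed from untreated at 0.5 nM. PLPP3 lay on either side of untreated. It was 0.31 higher at 0.5 nM (95% interval 0.04 to 0.58) and 0.30 lower at 5 µM (difference -0.30, -0.57 to -0.03). TAF5, a subunit of the general transcription factor TFIID, was at -0.20 at 0.5 nM (-0.34 to -0.06) and 0.04 at 5 µM (-0.10 to 0.18). ZNF264, a zinc finger protein, was at -0.17 (-0.33 to -0.0035) and 0.06 (-0.10 to 0.23). The 5 µM intervals of TAF5 and ZNF264 thus included 0. These intervals are not adjusted for the number of genes.

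**Figure D4:**
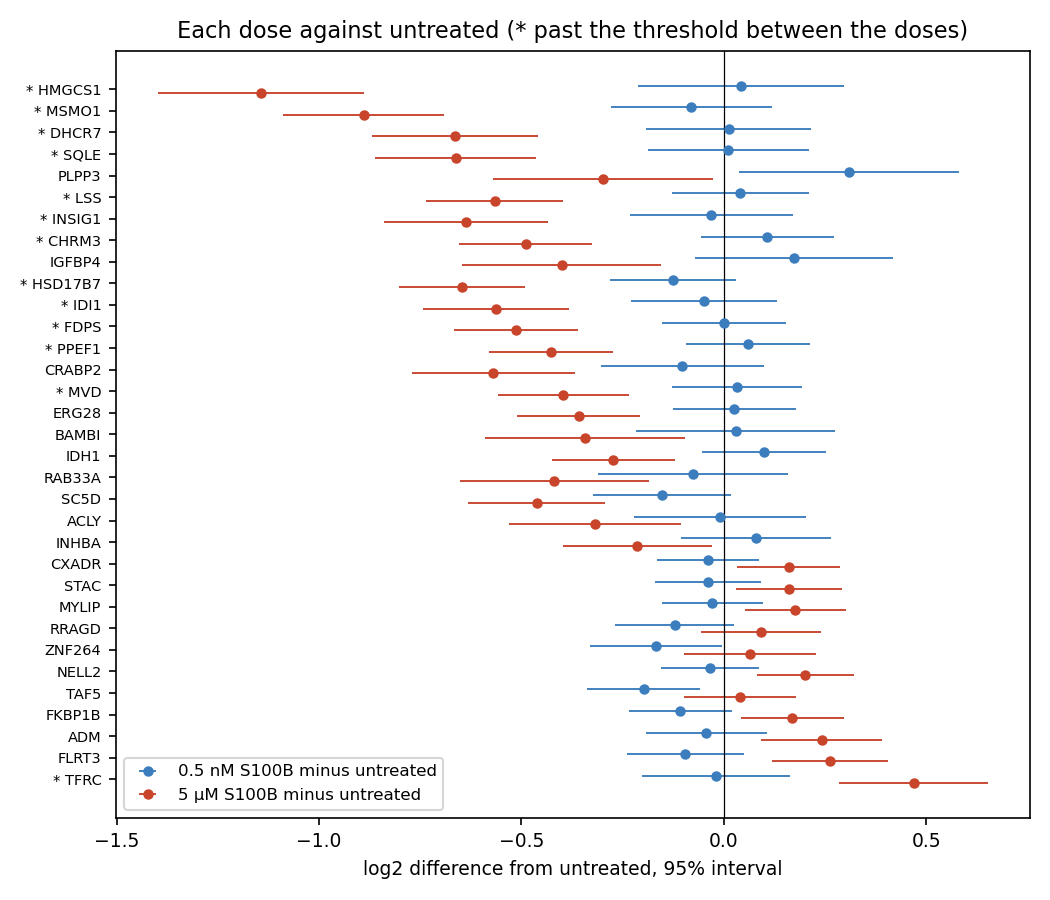
Difference of each dose from untreated cells (log2, with the 95% interval of limma's fit) for the 13 named genes that passed between the doses (asterisk) and the 20 with the largest differences that did not pass. The 0.5 nM intervals of the asterisked genes all include 0, while PLPP3 lies above 0 at 0.5 nM and below it at 5 µM.

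No gene tied to S100B signalling passed. AGER and S100B lay below the filter, and in a fit without it AGER differed by -0.06 ± 0.05 (SE; limma's adjusted p = 0.988) and S100B by -0.0084 ± 0.06 (adjusted p = 0.988). FGFR1, another receptor that binds S100B, was at -0.02 (95% interval -0.21 to 0.17). Of 13 tested receptors and RAGE effectors 0 passed and the median was -0.07, with the proteoglycan SDC1 at -0.19 ± 0.08 (adjusted p = 0.994). Of these, 12 of 13 lay below 0, where 55.0% of all probe sets did. In the list 2 members had an unadjusted p under 0.05, both lower (2.92% of all probe sets). They were SDC1 and ALCAM, which was at -0.21 (95% interval -0.40 to -0.01) and was chosen after its value was seen. Of 9 S100 family members 0 passed, with a median of 0.02 and S100A1, a paralog of S100B, at -0.16.

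The lists downstream of RAGE had no member past the threshold either. Of 26 measured NF-kB subunits and targets 12 were tested and 0 passed, with differences from -0.11 to 0.08. The inhibitor NFKBIB had the smallest p. The rest lay below the filter, the targets TNFAIP3, CXCL8, ICAM1 and IL6 among them, so the count does not cover them. Of 25 measured immediate early genes 15 were tested and 0 passed, while FOS and JUN lay below the filter. MYC, a growth-promoting transcription factor, was at -0.20 ± 0.09 (SE, limma's adjusted p = 0.994). Of 15 measured MAPK feedback genes 12 were tested and 0 passed, with the receptor kinase EPHA4 at -0.15. The medians of these 3 lists were -0.04, 0.02 and 0.03. MYCN, the amplified driver of many neuroblastomas, was at 0.01 (95% interval -0.12 to 0.14), and APP at 0.10 (-0.18 to 0.37).

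Mitosis genes lay slightly lower at 5 µM and ATF4 targets slightly higher, with no member of either list past the threshold. Of 33 mitosis genes 28 lay below 0 and the median was -0.09, beside 55.0% and -0.0089 for all probe sets. PLK1, the polo-like kinase that drives entry into and exit from mitosis, was at 8.59, 8.65 and 8.55 log2 at 0.5 nM and 8.29, 8.30 and 8.32 at 5 µM. The groups lay apart and tight, and the difference was -0.29 ± 0.06 (SE, limma's adjusted p = 0.0911). In the list 7 members had an unadjusted p under 0.05, all lower (2.92% of all probe sets). Among those, topoisomerase TOP2A at -0.34 ± 0.14 and the ubiquitin-conjugating enzyme UBE2C at -0.21 ± 0.07 were chosen after their values were seen. Of 37 DNA replication genes 28 lay below 0, the median was -0.04 and 0 passed, with the polymerase subunit POLD2 at -0.21 ± 0.06 (adjusted p = 0.832).

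Of 24 ATF4 and amino acid stress genes 19 lay above 0, where 45.0% of all probe sets did, and the median was 0.07. Asparagine synthetase ASNS, which had the smallest p of the list, was at 10.57, 10.61 and 10.46 log2 at 0.5 nM and 10.65, 10.84 and 10.76 at 5 µM. Its difference was 0.20 ± 0.06 (SE; limma's adjusted p = 0.871), and the untreated arrays, at 10.72, 10.66 and 10.65, all lay above the 0.5 nM arrays. After median centring 18 of 24 lay above 0, and over the fits that left out an array 16 to 19 did. For the mitosis list 5 of 33 lay above 0 after median centring and 7 after quantile normalization, and 2 to 10 over the fits that left out an array.

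Of 17 hypoxia-inducible genes 0 passed, with a median of 0.03 and 12 above 0. Beside ADM, VEGFA, the angiogenic growth factor, was at 0.29 ± 0.10 (SE; limma's adjusted p = 0.924) and was chosen after its value was seen. The glycolytic and hypoxia-inducible aldolase ALDOC was at -0.20 ± 0.06 (adjusted p = 0.861), with 9.23, 9.32 and 9.36 log2 at 0.5 nM and 9.09, 9.11 and 9.12 at 5 µM. Of the 15 glycolysis enzymes, 0 passed and the median was -0.02.

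**Figure D5:**
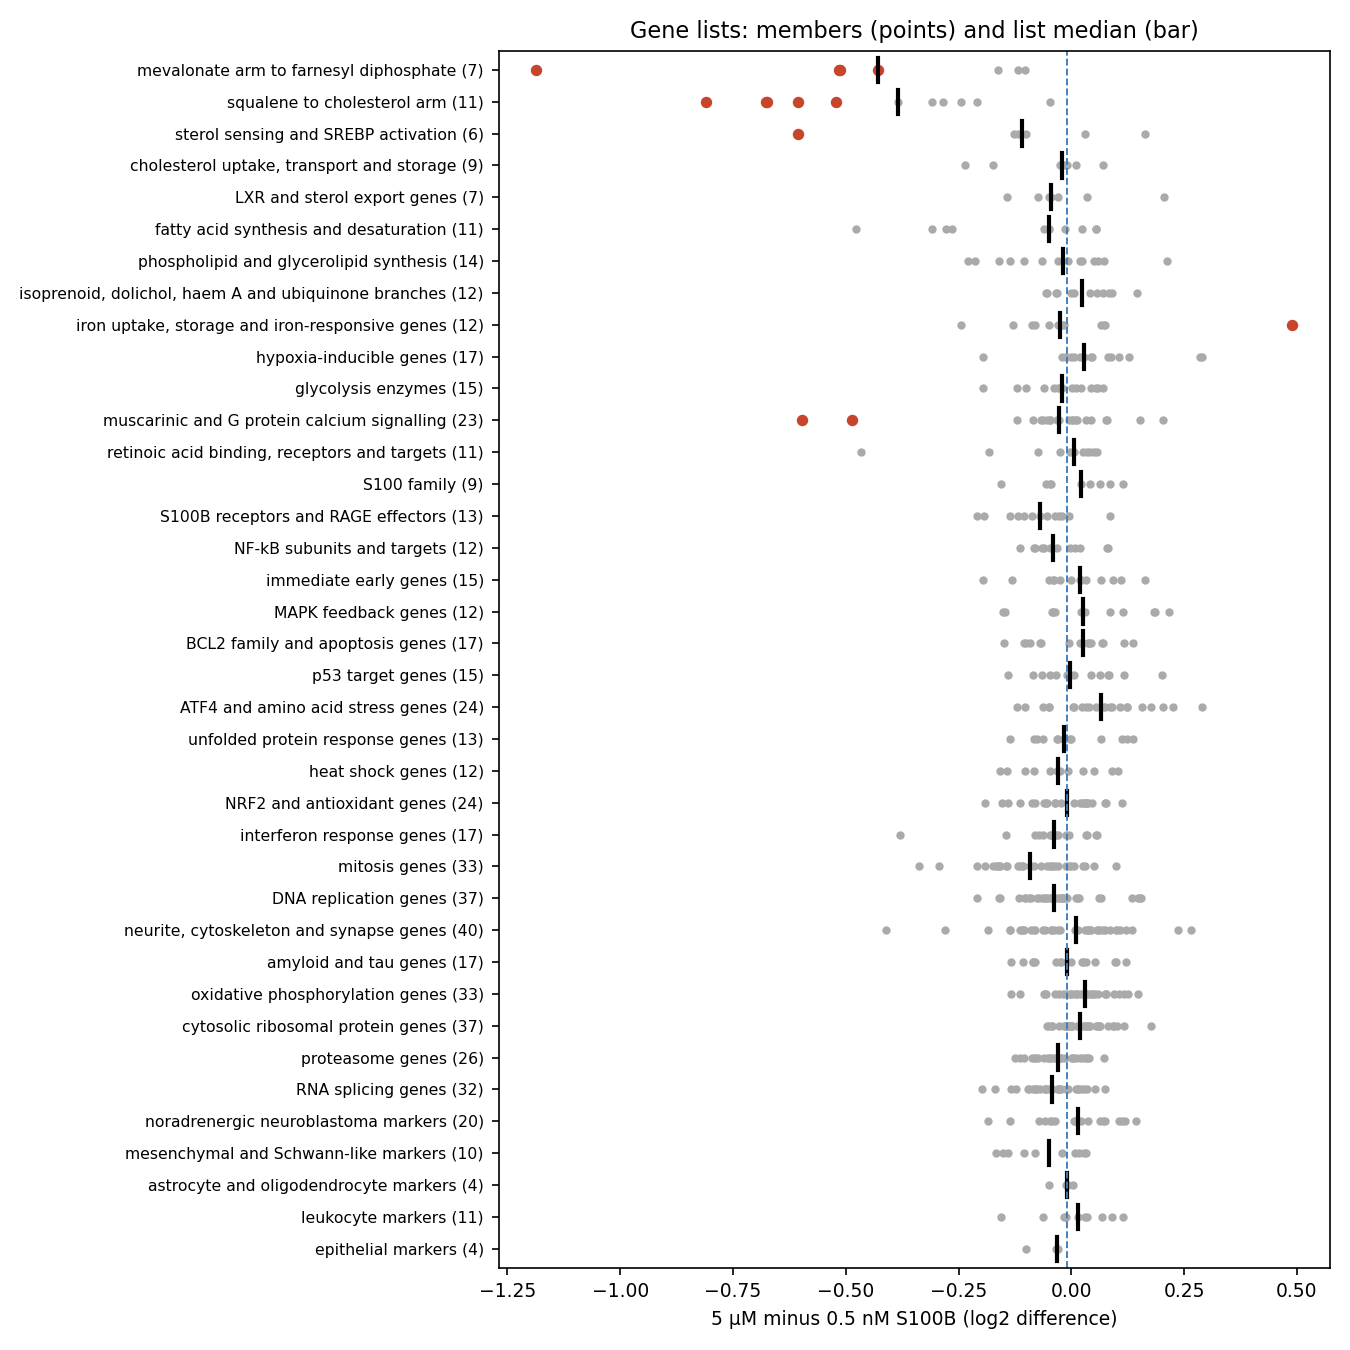
Difference between the doses (5 µM minus 0.5 nM, log2) of every tested member of the 38 gene lists, with the number tested in brackets, the list median as a black bar and the median of all probe sets (-0.0089) as a dashed line. Red members passed and stand in 5 of the lists, and the medians of both cholesterol arms, -0.43 and -0.38, lie farthest from the line.

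Lists of cell death and stress had no member past the threshold. The BH3-only protein BAD at 0.14 had the smallest p of 17 BCL2 family and apoptosis genes, the repair factor XPC at -0.14 that of 15 p53 targets, and the transcription factor XBP1 at 0.14 that of 13 unfolded protein response genes. Among 12 heat shock genes it was the small chaperone HSPB1 at -0.16, and among 24 antioxidant genes the pentose phosphate enzyme PGD at -0.15. The medians of these 5 lists ran from -0.03 to 0.02. Of 17 interferon response genes 13 lay below 0 with a median of -0.04, and the membrane protein IFITM3 was at 6.95, 7.33 and 7.22 log2 at 0.5 nM and 6.64, 6.72 and 6.99 at 5 µM. Its doses overlapped, and its difference was -0.38 ± 0.12 (SE; limma's adjusted p = 0.853).

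Neuronal and housekeeping lists were likewise without a call. Neuropeptide Y (NPY), at -0.41 ± 0.14 (SE; limma's adjusted p = 0.918), had the smallest p of 40 neurite, cytoskeleton and synapse genes, whose median was 0.0097. NPY was at 11.01, 10.84 and 10.53 log2 at 0.5 nM and 10.50, 10.38 and 10.27 at 5 µM, while untreated arrays ranged from 10.36 to 10.85 across both. The RNA-binding protein ELAVL4 at -0.18 led 20 noradrenergic markers, and the membrane-bending protein BIN1 at -0.13 led 17 amyloid and tau genes. The complex I subunit NDUFB5 at 0.15 led 33 oxidative phosphorylation genes, the ribosomal protein RPL31 at 0.18 led 37 of its kind, the proteasome subunit PSMB2 at -0.11 led 26, and the spliceosome protein SNRPA at -0.17 led 32 splicing genes, where leading means the smallest p. The medians of these 7 lists ran from -0.04 to 0.03.

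Markers of other cell types gave no call either. Of 10 mesenchymal and Schwann-like markers above the filter 0 passed, with the calcium-binding annexin ANXA2 at -0.15 ± 0.06 (SE; limma's adjusted p = 0.994). The glial enzyme GLUL at -0.05, the T cell protein CD8A at 0.09 and the epithelial factor ELF3 at -0.10 had the smallest p of 4, 11 and 4 markers tested. Those 4 lists had medians from -0.05 to 0.01.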

How the data were processed

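The authors deposited log2 values, 1 per probe set and array, made with GCRMA according to the submitters' processing notes. Its version was not given in the sources used here, nor were its settings. The method models background from probe sequence, scales arrays to each other and combines the probes of a set, so differences of dim probe sets can be compressed. The log2 scale was read from the values (4.37 to 14.51). Signal over background could not be assessed, since scanner intensities were not used here. The number of arrays limits the precision, and the median half-width of a 95% interval was 0.156.

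The 47 control probe sets and the dimmest part by the mean of all 9 arrays (2916, at or below 5.947) were left out. Symbols came from the platform annotation, updated by Entrez identifier through RefSeq: 7840 probe sets had 1 symbol, 388 several and 518 none, and 7838 matched. The fit was limma 3.58.1 in R 4.3.3 (lmFit, eBayes) on all 9 arrays, 3 groups, no covariate, with Benjamini-Hochberg adjustment over 5830 probe sets and a threshold of 0.05. The prior had 4.55 degrees of freedom. Values of 3 arrays against 3 follow in replicate order. The exact permutation test of single genes cannot go below 0.1 here, so calls rest on the pooled spread. The procedure was checked on simulated data.

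The members, gene lists and motifs were chosen with earlier results of these data known. Lists use the probe set of highest mean per gene. Named are: every gene past the threshold; the 10 largest rises and 10 largest falls with an unadjusted p under 0.01 and no overlap that did not pass; of each list the members past the threshold or the 1 with the smallest p; all tested members of 5 sterol and iron lists; and AGER, S100B, APP, FGFR1 and MYCN. By their suffix, HSD17B7 and IDI1 were read by probes that may also bind unrelated transcripts, and DHCR7, PPEF1, INSIG1, MVD and ABCG1 by probes shared among related ones.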

Additional observations from a re-analysis of the deposited data

How the results depend on the processing

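The number of probe sets past the threshold was 15, and 13 to 20 after quantile normalization, median centring, no filter, a stricter filter, a replicate block or eBayes with trend and robust settings. It was 4 in a fit of the 6 dose arrays, which has fewer degrees of freedom, and 1 with an unmoderated test, where 0 of the cholesterol synthesis genes passed, against 3 in the fit of 6. Leaving out 1 array gave 3 to 14 probe sets and 2 to 9 cholesterol synthesis genes. Without replicate 3 of every group, an alternative added after seeing the data, 4 and 3 passed. The cause of these losses was not tested.

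Over the 9 fits that left out an array, HMGCS1 and MSMO1 always passed, CHRM3 did in 7, LSS and SQLE in 6, HSD17B7, DHCR7 and PPEF1 in 5, FDPS in 4, INSIG1 in 2 and IDI1, MVD and TFRC in 1, each with its direction kept in all 9. Without the filter MVD and TFRC did not pass and ABCG1 did. Over all 18 alternative settings MVD and TFRC each passed in 4. FLRT3, PLPP3, IGFBP4, ERG28 and IDH1, which did not pass, passed under at least 1 alternative. With the replicate number of the titles as a block 15 passed, 13 of them among the same 15. Same-numbered arrays correlated in their deviations from the group means at 0.03 to 0.07 for replicate 1 and -0.00035 to 0.23 for replicate 2. For replicate 3 the correlation was 0.30 to 0.33 in every pair of groups, so these arrays shared part of their deviations. Of the 6 dose arrays 2 correlated best with their own number, and the main fit did not pair the arrays.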
